A study of Mus musculus with 12 samples.

Results

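The tricarboxylic acid (TCA) cycle and fatty acid oxidation enzymes were described here as 38 genes, taken by symbol from the table of 25189 genes and ordered by pathway step. They comprise 24 genes of the pyruvate dehydrogenase complex and the TCA cycle with its side enzymes, and 14 genes of fatty acid oxidation. All 38 were in the table and had enough reads to be tested, with between 43 and 15267 reads per library. The RNA came from spleens of female mice aged 4 weeks, from sorted regulatory T (Treg) cells, a CD4 lineage that keeps other immune cells in check. The 12 libraries form 3 groups of 4. Ric cells are labelled as deficient for both Foxp3 and Rictor, deltaIcre cells as deficient for Foxp3, and WT cells as wild type. Foxp3 is the transcription factor that defines Treg cells, and Rictor is the subunit that defines mTOR complex 2. The mice named in the labels are Foxp3∆EGFPiCre/RFP R26YFP and Foxp3∆EGFPiCre/+ Rictor∆/∆ R26YFP females, and the cells were gated as CD4+RFP+ or CD4+YFP+. By its name the mutant allele carries a green reporter and Cre in Foxp3 itself, and since Foxp3 is X-linked, a heterozygous female also has cells that use the other allele. The labels tie neither mouse genotype nor gate to single libraries and do not name the animal behind each library, so the p-values rest on the spread among these libraries alone, part of which may be technical. By their names, only the second of these mice carries a Rictor deletion. If the Ric libraries came from it and the others did not, Rictor loss and mouse line cannot be told apart.

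Pyruvate dehydrogenase turns pyruvate into acetyl-CoA, and the TCA cycle oxidizes acetyl-CoA while loading NAD and FAD with electrons for the respiratory chain. Fatty acids reach the mitochondrial matrix as carnitine esters and are shortened there in rounds of dehydrogenation, hydration, dehydrogenation and thiolysis that release acetyl-CoA into the same cycle. Treg cells are known for a greater reliance on oxidative metabolism and fatty acid oxidation than conventional effector T cells, and mTOR signalling is among the pathways that set this balance.

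The libraries held between 15769737 and 26114044 reads assigned to genes. Foxp3 averaged 102.1 CPM (counts per 1000000 reads of the scaled library size) in Ric, 118.4 CPM in deltaIcre and 633.0 CPM in WT libraries, and its difference from WT was past the threshold in both mutant groups. Rictor averaged 140.8 CPM in Ric, 188.8 CPM in deltaIcre and 148.4 CPM in WT libraries. In the edgeR test described below, Rictor was not called in Ric over WT cells (log2 fold change -0.08, adjusted p = 0.626). The same test called it lower in Ric over deltaIcre (-0.42, adjusted p = 0.0129) and higher in deltaIcre over WT cells (0.35, adjusted p = 0.0494). A count over the whole gene does not show the loss of single exons, and the deleted part is not given in the sources used here. Ric libraries differed in quality measures, with 4.63% to 5.47% of reads outside genes, against 6.22% to 9.27% in deltaIcre and 7.52% to 8.75% in WT libraries. The replicate deltaIcre 1 stood apart on the second component of a principal component analysis and deltaIcre 3 on the third. The T cell markers summed to 6090 to 6680 CPM in Ric, 6360 to 7540 CPM in deltaIcre and 6040 to 6270 CPM in WT libraries. Of these 5 markers, 2 were called higher in deltaIcre over WT cells. In Ric over deltaIcre cells 3 were called lower and 1 higher, and in Ric over WT cells 0 were called. Myeloid, erythroid and platelet markers each summed to at most 3.74 CPM. Treg markers, Foxp3 among them, summed to 1020 to 1140 CPM in Ric and 727 to 913 CPM in deltaIcre libraries. In WT libraries they summed to 2030 to 2250 CPM. Of 5 tested, 4 were called lower in deltaIcre over WT and 3 in Ric over WT cells. In Ric over deltaIcre cells 2 were called higher. Dendritic cell markers summed to 4.26 to 7.07 CPM in Ric, 2.15 to 5.51 CPM in deltaIcre and 4.43 to 8.04 CPM in WT libraries. B cell markers summed to 16.1 to 23.2 CPM in Ric, 7.96 to 12.6 CPM in deltaIcre and 19.2 to 25.3 CPM in WT libraries, and proliferation markers to 173 to 253, 139 to 295 and 126 to 150 CPM in the same 3 groups. Markers of NK and CD8 cells summed to 33.1 to 34.8 CPM in Ric, 23.4 to 29.5 CPM in deltaIcre and 25.3 to 29.2 CPM in WT libraries, with 2 of 5 called higher in Ric over WT cells. In Ric over deltaIcre cells 1 of them was called higher and 1 lower. Plasma cell markers summed to 227 to 257 CPM in Ric, 178 to 218 CPM in deltaIcre and 244 to 271 CPM in WT libraries, with 3 of 4 called higher in Ric over deltaIcre cells. In deltaIcre over WT cells 2 of them were called lower, and in Ric over WT cells 2 were called higher. The part of these quality and marker differences in the results below was not tested, and in bulk RNA fewer cells of a type and less RNA per cell cannot be told apart.

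Of the 38 enzymes 24 were called in no comparison, and most of the calls were rises. The share of all genes called in no comparison was not computed. A gene was called where edgeR's quasi-likelihood test gave a Benjamini-Hochberg adjusted p under 0.05 over all 13196 genes tested, and every adjusted p below comes from that test. In deltaIcre against WT cells 4 of 38 enzymes were called (10.5%), against 13.7% of all genes tested. Those 4 all rose (Idh2, Ogdh, Me2 and Cpt1a; 6.99% of all genes rose), and 0 fell, against 6.74% of all genes. Unadjusted p was under 0.05 for 3 lower enzymes, DESeq2 called 2 lower ones and limma-voom 0. In Ric against deltaIcre cells 8 of 38 were called (21.1%), against 27.2% of all genes. Of these 7 rose (Dld, Sucla2, Sdhd, Mdh1, Acads, Acaa2 and Etfa; 13.9% of all genes rose) and Ogdh fell (13.3% of all genes fell). In Ric against WT cells 12 of 38 were called (31.6%), against 32.6% of all genes. Of these 10 rose (Pdhb, Dld, Idh2, Sucla2, Sdhd, Mdh1, Me2, Cpt1a, Acaa2 and Etfa; 15.8% of all genes rose) and Aco1 and Cpt2 fell (16.8% of all genes fell). In each comparison the share of enzymes called was near or below that of all genes. The 3 comparisons share libraries, so their calls are not independent. Without Ric 5 the counts were 4 for Ric over deltaIcre and 5 for Ric over WT; without WT 4 Ric over WT had 7, and without deltaIcre 3 there were 13 calls for Ric over deltaIcre.

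**Figure D1:**
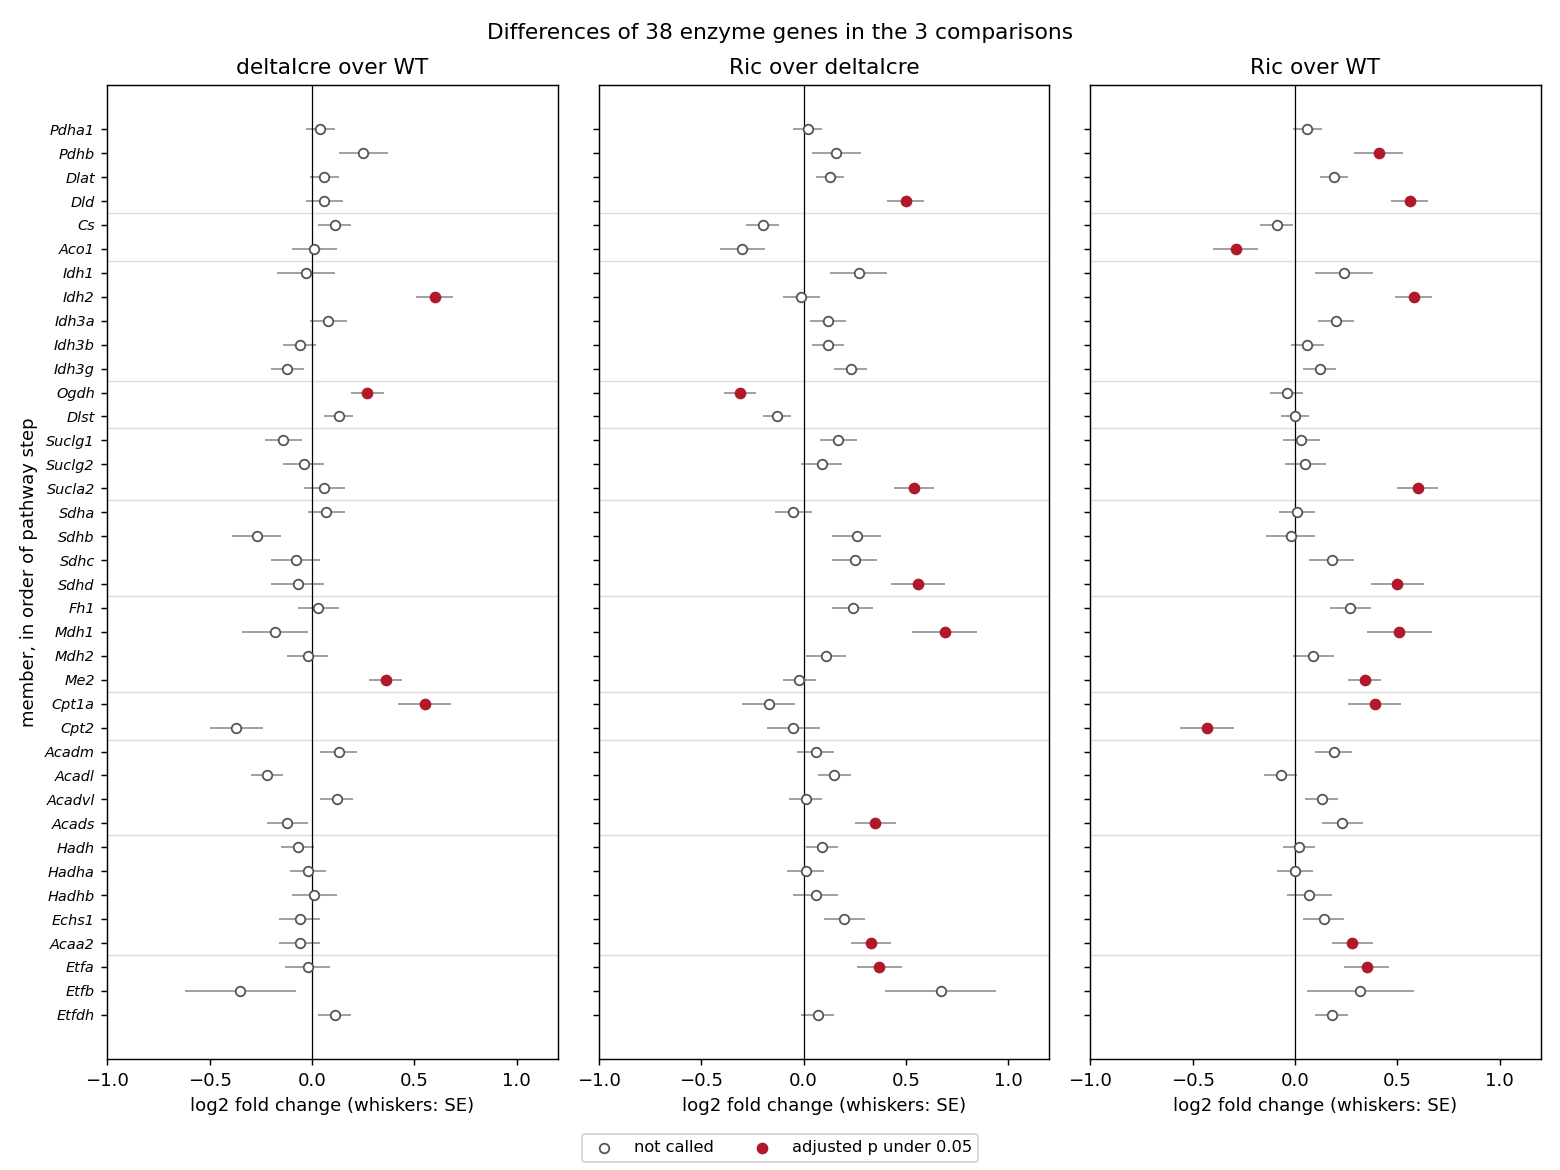
Log2 fold change (horizontal axis, with standard error) of each of the 38 enzyme genes (vertical axis, in pathway order) for deltaIcre over WT, Ric over deltaIcre and Ric over WT, from 1 edgeR fit of 12 libraries; filled points are called. All 4 calls of deltaIcre over WT lie right of 0, as do 7 of 8 for Ric over deltaIcre and 10 of 12 for Ric over WT.

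The size of the differences was small throughout. The largest called log2 fold change was that of Mdh1 in Ric over deltaIcre cells, 0.69, which is a fold of 1.62. The median log2 fold change of the 38 enzymes was 0.16 for Ric over WT, against -0.03 for all genes tested, and 31 of 38 were positive. For Ric over deltaIcre it was 0.12, against -0.02 for all genes, with 29 of 38 positive. For deltaIcre over WT 19 of 38 were positive. Summed over the 38 genes the level was 5372 ± 180 CPM in Ric, 4969 ± 301 CPM in deltaIcre and 4796 ± 113 CPM in WT libraries (mean ± SD, n = 4 each). The lowest Ric library, at 5166 CPM, lay above every WT library, the highest of which was at 4900 CPM, but below deltaIcre 5 at 5295 CPM.

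**Figure D2:**
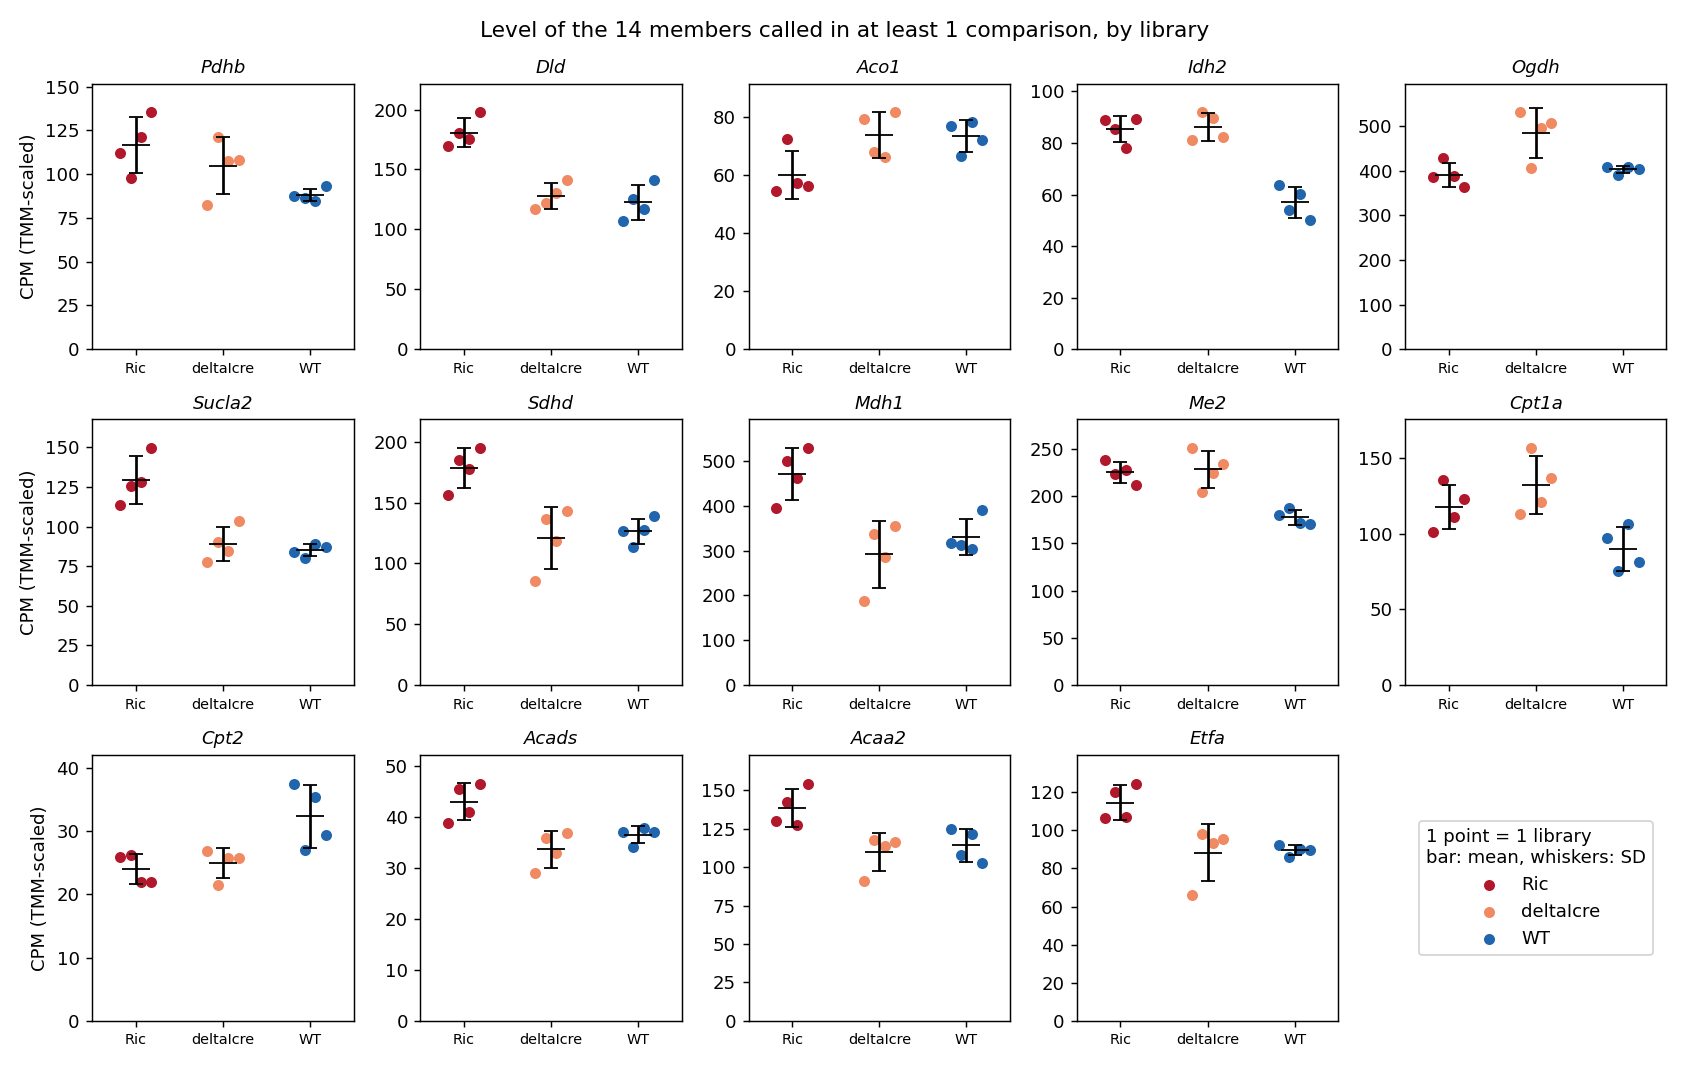
Level in CPM (vertical axis, starting at 0) of the 14 enzymes called at least once, in Ric, deltaIcre and WT libraries; each point is 1 library, bars and whiskers are mean and SD. Idh2 and Me2 are high in both mutant groups, while Dld, Sucla2, Sdhd and Mdh1 are high in Ric libraries, with deltaIcre libraries near WT.

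Levels of different genes were compared per kilobase of the longest coding transcript, as the mean over 12 libraries. Mdh2 led at 259 CPM per kb, followed by Sdha at 188, Mdh1 at 172, Sdhb at 134 and Sdhd at 115 CPM per kb. These are malate dehydrogenases and subunits of succinate dehydrogenase. The succinate dehydrogenase subunit Sdhc was far lower, at 29.8 CPM per kb. At the low end stood Cpt2 at 11.4, the succinyl-CoA ligase subunit Suclg2 at 9.01, the cytosolic isocitrate dehydrogenase Idh1 at 8.93 and Etfb at 5.998 CPM per kb. Etfb overlaps Gm45233 on the same strand over 678 bases and shares 67.3% of its 50-base stretches with other genes, so its count is uncertain.

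**Figure D3:**
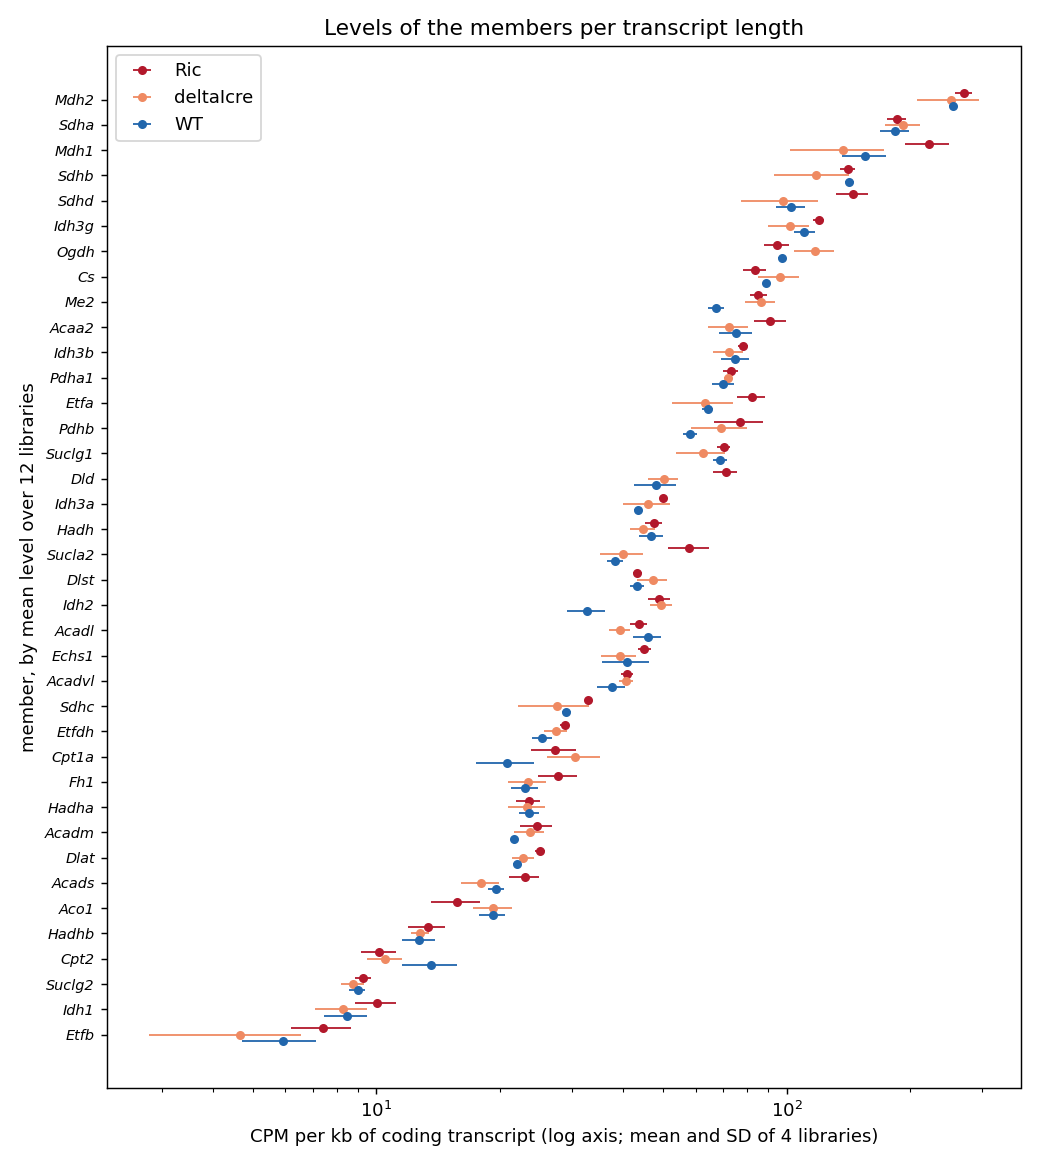
Level of the 38 enzymes in CPM per kilobase of coding transcript (horizontal log axis, mean and SD of 4 libraries per group), ordered by the mean over 12 libraries. The order runs between Mdh2 at 259 and Etfb at 5.998 CPM per kb, and group differences are small beside the differences between genes.

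The pyruvate dehydrogenase complex rose in part in Ric cells: Dld rose against both other groups and Pdhb against WT, while Pdha1 and Dlat were not called in any comparison. Dld, chr12:31331277-31351453 on the minus strand, encodes dihydrolipoamide dehydrogenase, the E3 subunit that this complex shares with oxoglutarate dehydrogenase. Dld was at 169, 180.1, 176 and 198 CPM in Ric libraries, at 117, 122, 130.3 and 142 CPM in deltaIcre libraries, and at 107, 126, 117 and 141 CPM in WT libraries. Every Ric library was above every library of both other groups, which overlapped each other. Against deltaIcre, Ric cells had 1.42-fold higher Dld (log2 fold change 0.50 ± 0.09 SE, adjusted p = 0.00196). Dld was 1.47-fold higher in Ric than in WT cells (a log2 fold change of 0.56 ± 0.09 SE, adjusted p = 0.00041). Both calls held when each library was left out in turn and in every other setting tried. Pdhb, chr14:8165996-8173025 on the minus strand, encodes the beta subunit of the E1 component. Pdhb was at 112, 97.6, 121 and 135 CPM in Ric libraries, at 82.1, 121, 108 and 108 CPM in deltaIcre libraries, and at 87.6, 86.5, 84.9 and 93.2 CPM in WT libraries. All Ric libraries were above all WT libraries, and the deltaIcre libraries spread widely, 3 of them within the Ric range and deltaIcre 1 below every WT library. Pdhb was 1.32-fold higher in Ric than in WT cells (a log2 fold change of 0.41 ± 0.12 SE, adjusted p = 0.0145). Without Ric 5 the call was lost (log2 fold change 0.33, adjusted p = 0.0543), and without deltaIcre 1 Pdhb was also called in deltaIcre over WT (0.35, adjusted p = 0.0259). Pdha1, the E1 alpha subunit, ranged between 188.5 and 219.4 CPM over all 12 libraries. Dlat, the E2 subunit, was at 101.1 ± 2.94 CPM in Ric, 92.1 ± 5.56 CPM in deltaIcre and 88.6 ± 1.89 CPM in WT libraries (SD, n = 4 each), and missed the threshold in Ric over WT (0.19, adjusted p = 0.0503).

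Citrate synthase and cytosolic aconitase did not rise in any comparison. Cs, the entry enzyme of the cycle, was at 245 ± 16.3 CPM in Ric, 282 ± 32.5 CPM in deltaIcre and 260.1 ± 3.83 CPM in WT libraries and was not called. Aco1, chr4:40143081-40198338 on the plus strand, encodes the cytosolic aconitase, which also acts as an iron regulatory protein. Aco1 was at 54.6, 72.4, 57.3 and 56.3 CPM in Ric libraries, at 79.6, 67.9, 66.2 and 81.8 CPM in deltaIcre libraries, and at 77.2, 66.5, 78.4 and 72.1 CPM in WT libraries. Ric 3 lay among the other groups while the other 3 Ric libraries were below all of them. Against WT, Ric cells had 1.22-fold lower Aco1 (log2 fold change -0.29 ± 0.11 SE, adjusted p = 0.0495). The call was lost in 7 of 12 fits that left out a library (Ric 2, Ric 4, Ric 5, WT 1, WT 4, WT 5 or deltaIcre 4; log2 fold changes between -0.30 and -0.24) and in 5 of 11 other settings, among them RLE scaling and no low-count filter. With the length and GC dependence removed it was -0.22 (adjusted p = 0.105). In Ric over deltaIcre the log2 fold change of Aco1 was -0.30 (adjusted p = 0.0516), and it was called without Ric 3, deltaIcre 3 or deltaIcre 4 (-0.39 to -0.33).

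Among the isocitrate dehydrogenases only Idh2 was called, and it was higher in both mutant groups than in WT. Idh2, chr7:80094846-80115392 on the minus strand, encodes the mitochondrial enzyme that uses NADP. Idh2 was at 88.8, 85.4, 78.2 and 89.4 CPM in Ric libraries, at 81.1, 92, 89.5 and 82.3 CPM in deltaIcre libraries, and at 63.8, 53.99, 60.1 and 50.04 CPM in WT libraries. The lowest mutant library, Ric 4, was above the highest WT library, and the Ric and deltaIcre libraries overlapped. Idh2 was 1.51-fold higher in deltaIcre than in WT cells (a log2 fold change of 0.60 ± 0.09 SE, adjusted p = 0.000261). Idh2 was 1.5-fold higher in Ric than in WT cells (a log2 fold change of 0.58 ± 0.09 SE, adjusted p = 0.000244). Both calls held without each library and in every other setting. For Ric over deltaIcre the log2 fold change was -0.01 ± 0.09 (SE). The subunits of the NAD-dependent enzyme, which carries the main flux of the cycle, were not called: Idh3a ranged between 100.4 and 135.9 CPM, Idh3b between 108 and 135 CPM and Idh3g between 118 and 166 CPM over the 12 libraries. Idh3g had the smallest adjusted p of the 3, 0.0502 for Ric over deltaIcre (log2 fold change 0.23). Idh1, the cytosolic enzyme, lay between 16.1 and 25.4 CPM.

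Ogdh, chr11:6291633-6356642 on the plus strand, the E1 subunit of oxoglutarate dehydrogenase, was the enzyme that rose in deltaIcre cells and fell in Ric cells relative to them. Ogdh was at 385, 428, 389 and 363 CPM in Ric libraries, at 531, 405, 496 and 506 CPM in deltaIcre libraries, and at 408, 391, 409 and 404 CPM in WT libraries. In 3 of 4 deltaIcre libraries it was above all others, while deltaIcre 3 lay among the WT and Ric libraries. Against WT, deltaIcre cells had 1.203-fold higher Ogdh (log2 fold change 0.27 ± 0.08 SE, adjusted p = 0.0472). Ogdh was 1.24-fold lower in Ric than in deltaIcre cells (a log2 fold change of -0.31 ± 0.08 SE, adjusted p = 0.0156). The first call was lost in 11 of 12 fits that left out a library, all but that without deltaIcre 3 (log2 fold changes 0.22 to 0.27, adjusted p = 0.0521 to 0.122), and the second without Ric 5 (-0.27, adjusted p = 0.0583). With the dependence on transcript length and GC content removed they were 0.21 (adjusted p = 0.0581) and -0.14 (adjusted p = 0.19). Dlst, the E2 subunit, was at 119.5 ± 3.09 CPM in Ric, 130.4 ± 10.7 CPM in deltaIcre and 119.5 ± 4.55 CPM in WT libraries, and was not called.

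Succinyl-CoA ligase makes ATP or GTP depending on its beta subunit, and only the ATP-forming subunit was called. Sucla2, chr14:73525319-73596142 on the plus strand, encodes it. Sucla2 was at 114, 126, 128 and 149.6 CPM in Ric libraries, at 77.8, 90.2, 84.5 and 103 CPM in deltaIcre libraries, and at 84.1, 80.3, 89.2 and 86.8 CPM in WT libraries. Every Ric library was above every library of both other groups. Sucla2 was 1.45-fold higher in Ric than in deltaIcre cells (a log2 fold change of 0.54 ± 0.10 SE, adjusted p = 0.00189). Against WT, Ric cells had 1.52-fold higher Sucla2 (log2 fold change 0.60 ± 0.10 SE, adjusted p = 0.000392). Both calls held without each library and in every other setting. Suclg2, the GTP-forming subunit, was at 31.3 ± 1.42 CPM in Ric, 29.5 ± 1.95 CPM in deltaIcre and 30.3 ± 1.35 CPM in WT libraries, and Suclg1, the shared alpha subunit, at 107 ± 3.78, 94.8 ± 13 and 105 ± 3.99 CPM in the same groups. Neither was called in any comparison. Whether Sucla2 and Suclg2 differed from each other in their response was not tested.

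Of the 4 subunits of succinate dehydrogenase, which is also complex II of the respiratory chain, Sdhd alone was called. It encodes a membrane anchor subunit and lies at chr9:50596357-50603812 on the minus strand (GRCm38). Sdhd was at 156, 185, 178 and 195 CPM in Ric libraries, at 85.4, 136, 119 and 143 CPM in deltaIcre libraries, and at 126, 114, 127 and 139 CPM in WT libraries. Every Ric library was above every other library. Sdhd was 1.48-fold higher in Ric than in deltaIcre cells (a log2 fold change of 0.56 ± 0.13 SE, adjusted p = 0.00681). Sdhd was 1.41-fold higher in Ric than in WT cells (a log2 fold change of 0.50 ± 0.13 SE, adjusted p = 0.00922). Both calls held without each library and in every other setting, and with the length and GC dependence removed the log2 fold changes were 0.25 (adjusted p = 0.0296) and 0.30 (adjusted p = 0.00676). The deltaIcre 1 library was the lowest for Sdhd, and also for Sdhb (96.2 CPM, against 132 to 167 CPM in the other 11 libraries) and Sdhc (61.6 CPM). Sdha, the flavoprotein subunit, ranged between 480.1 and 602 CPM with all 3 groups overlapping.

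The Sdhd promoter window is shown because it was the only enzyme window of 34 matched genes to hold the extended half-site TNAAGGTCA of estrogen-related receptors, nuclear receptors known for driving oxidative metabolism genes; 1.43% of all genes in the RefSeq GRCm38.p6 promoter table hold it on either strand. The window covers 250 bases before to 50 bases after the RefSeq start, chr9:50603800-50604099 on the minus strand, and the match in capitals, on the opposite strand, begins 36 bases after the start. The start of Timm8b, which is transcribed the other way, lies 61 bases before that of Sdhd, inside the window. A match is a description and not evidence of a bound site.
Sdhd: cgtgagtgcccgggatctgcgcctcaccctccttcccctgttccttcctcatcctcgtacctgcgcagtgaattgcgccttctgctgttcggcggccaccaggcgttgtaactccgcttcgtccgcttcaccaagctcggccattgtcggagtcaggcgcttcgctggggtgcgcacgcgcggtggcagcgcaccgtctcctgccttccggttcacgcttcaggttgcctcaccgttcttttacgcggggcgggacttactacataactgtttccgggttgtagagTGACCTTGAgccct

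Of the enzymes around malate, the cytosolic Mdh1 and the mitochondrial malic enzyme Me2, which lie beside the cycle, changed. The enzymes of the last steps of the cycle, Fh1 and the mitochondrial Mdh2, were not called. Mdh1, chr11:21556787-21572367 on the minus strand, encodes the malate dehydrogenase of the malate-aspartate shuttle in the cytosol. Mdh1 was at 395, 499, 462 and 529 CPM in Ric libraries, at 188, 338, 285 and 356 CPM in deltaIcre libraries, and at 317, 312, 304 and 389.7 CPM in WT libraries. All Ric libraries were above all others, with Ric 2 close to WT 5, and deltaIcre 1 was the lowest. Against deltaIcre, Ric cells had 1.62-fold higher Mdh1 (log2 fold change 0.69 ± 0.16 SE, adjusted p = 0.00722). Mdh1 was 1.43-fold higher in Ric than in WT cells (a log2 fold change of 0.51 ± 0.16 SE, adjusted p = 0.0241). The first call held without each library. The second was lost without Ric 3, Ric 5, WT 1, WT 3 or WT 4 (log2 fold changes 0.45 to 0.49) and stood at 0.38 (adjusted p = 0.0307) with the length and GC dependence removed. Me2, on chromosome 18, makes pyruvate from malate. Me2 was at 238, 223, 228 and 212 CPM in Ric libraries, at 251, 204, 224 and 234 CPM in deltaIcre libraries, and at 180.4, 188, 172 and 170.3 CPM in WT libraries. Every library of both mutant groups was above every WT library. Me2 was 1.29-fold higher in deltaIcre than in WT cells (a log2 fold change of 0.36 ± 0.08 SE, adjusted p = 0.00376). Against WT, Ric cells had 1.27-fold higher Me2 (log2 fold change 0.34 ± 0.08 SE, adjusted p = 0.0034). Both calls held without each library and in every other setting. Mdh2 was at 394 ± 19.4 CPM in Ric, 366 ± 62.9 CPM in deltaIcre and 371 ± 8.08 CPM in WT libraries. Fh1, fumarase, was at 73.2 ± 7.98 CPM in Ric, 61.8 ± 6.61 CPM in deltaIcre and 60.7 ± 4.49 CPM in WT libraries, and missed the threshold in Ric over WT (0.27, adjusted p = 0.0559).

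**Figure D4:**
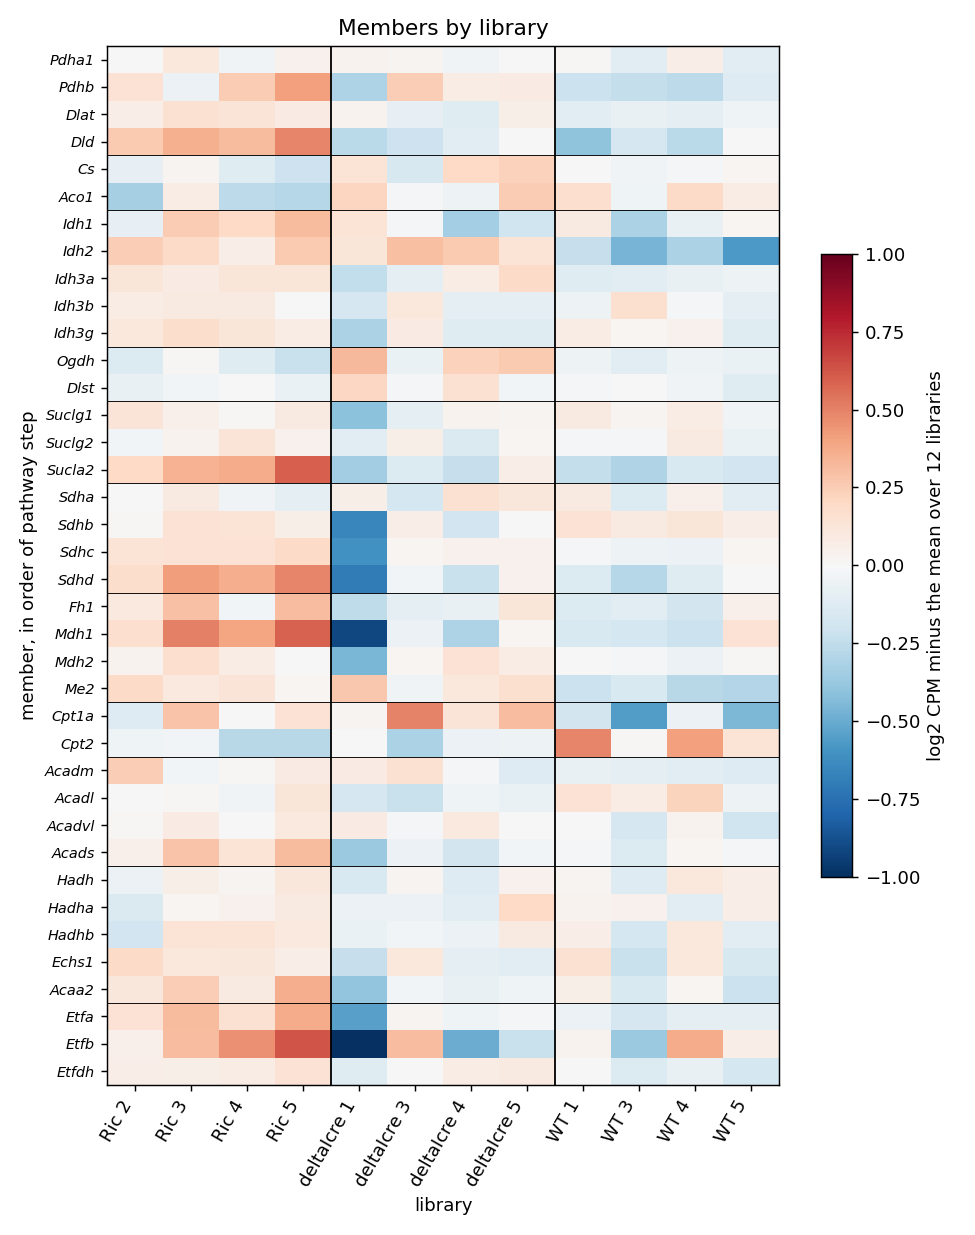
Log2 CPM of each enzyme minus its mean over 12 libraries (colour), with genes down the page in pathway order and libraries across. The deltaIcre 1 column is low for Sdhb, Sdhc, Sdhd and Mdh1, and the Ric columns are high for Dld, Sucla2, Sdhd and Mdh1.

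The carnitine palmitoyltransferases, which carry long-chain fatty acids into mitochondria, moved in opposite directions in Ric over WT cells. Cpt1a, chr19:3322334-3385733 on the plus strand, encodes the outer membrane enzyme, the rate-limiting step of import. Cpt1a was at 101, 136, 111 and 123 CPM in Ric libraries, at 113, 157, 121 and 137 CPM in deltaIcre libraries, and at 97.4, 75.1, 106 and 81.04 CPM in WT libraries. All deltaIcre libraries were above all WT libraries, and Ric 2 lay within the WT range. Cpt1a was 1.47-fold higher in deltaIcre than in WT cells (a log2 fold change of 0.55 ± 0.13 SE, adjusted p = 0.00767). Cpt1a was 1.31-fold higher in Ric than in WT cells (a log2 fold change of 0.39 ± 0.13 SE, adjusted p = 0.0306). The first call held without each library and was lost in 1 of the other settings. The second was lost without Ric 3, Ric 5, WT 3 or WT 5 (log2 fold changes 0.31 to 0.37) and in 1 of the other settings, and was 0.59 (adjusted p = 0.011) with the length and GC dependence removed. Cpt2, chr4:107903981-107923610 on the minus strand, encodes the inner membrane enzyme. Cpt2 was at 25.9, 26.3, 22.01 and 21.99 CPM in Ric libraries, at 26.8, 21.4, 25.7 and 25.8 CPM in deltaIcre libraries, and at 37.5, 26.97, 35.4 and 29.3 CPM in WT libraries. All Ric libraries were below all WT libraries, the highest Ric library only just. Against WT, Ric cells had 1.34-fold lower Cpt2 (log2 fold change -0.43 ± 0.13 SE, adjusted p = 0.0206). The call was lost without Ric 4, Ric 5, WT 1 or WT 4 (-0.38 to -0.35) and in 1 of the other settings. In deltaIcre over WT the log2 fold change of Cpt2 was -0.37 (adjusted p = 0.0698), called by DESeq2 and without WT 3 (-0.46, adjusted p = 0.0397).

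The Cpt2 window is shown since Cpt2 was the only called enzyme whose window holds CCGGAAGT, the site letters of ETS factors such as GABPA, a known regulator of nuclear mitochondrial genes. On either strand the letters occur in 2 of 34 matched enzyme genes (Dlst and Cpt2) and in 4.31% of all genes in the table. The window is chr4:107923540-107923839 on the minus strand, and the match in capitals begins 13 bases before the RefSeq start.
Cpt2: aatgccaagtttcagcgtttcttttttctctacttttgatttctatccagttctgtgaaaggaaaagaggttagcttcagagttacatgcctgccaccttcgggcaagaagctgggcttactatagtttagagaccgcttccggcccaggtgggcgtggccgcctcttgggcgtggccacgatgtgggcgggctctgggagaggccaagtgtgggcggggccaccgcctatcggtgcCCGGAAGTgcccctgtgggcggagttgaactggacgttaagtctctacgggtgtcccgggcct
Another motif searched, the NRF1 site, was found on either strand in Etfdh alone, against 1.07% of all genes.

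Inside the mitochondrial spiral of fatty acid oxidation Acads and Acaa2 were higher in Ric over deltaIcre cells, 2 of 9 enzymes (22.2%), against 27.2% of all genes called. Acaa2 was also higher in Ric over WT cells, 1 of 9 (11.1%), against 32.6% of all genes. Acads, chr5:115110299-115119346 on the minus strand, encodes the short-chain acyl-CoA dehydrogenase. Acads was at 38.9, 45.6, 41.1 and 46.6 CPM in Ric libraries, at 28.96, 35.9, 32.9 and 36.9 CPM in deltaIcre libraries, and at 37.2, 34.1, 37.9 and 37.1 CPM in WT libraries. All Ric libraries were above all others, narrowly so for WT. Acads was 1.28-fold higher in Ric than in deltaIcre cells (a log2 fold change of 0.35 ± 0.10 SE, adjusted p = 0.0215). The call was lost without Ric 3, Ric 5 or deltaIcre 4 (log2 fold changes 0.32 to 0.34), and the value was 0.29 (adjusted p = 0.0364) with the length and GC dependence removed. Acaa2, on chromosome 18, encodes a mitochondrial thiolase, the last enzyme of the spiral. Acaa2 was at 129.8, 142, 127 and 154 CPM in Ric libraries, at 91.3, 118, 114 and 116 CPM in deltaIcre libraries, and at 125, 108, 121 and 103 CPM in WT libraries. Every Ric library was above every other library, and deltaIcre 1 was the lowest. Acaa2 was 1.26-fold higher in Ric than in deltaIcre cells (a log2 fold change of 0.33 ± 0.10 SE, adjusted p = 0.0222). Against WT, Ric cells had 1.21-fold higher Acaa2 (log2 fold change 0.28 ± 0.10 SE, adjusted p = 0.0433). The first was lost without Ric 5 or deltaIcre 1 (0.26 to 0.29), and the second without Ric 3, Ric 5, WT 3, WT 4, WT 5 or deltaIcre 4 (0.22 to 0.31). With the length and GC dependence removed they were 0.08 (adjusted p = 0.51) and 0.12 (adjusted p = 0.253). The medium-chain, long-chain and very-long-chain dehydrogenases Acadm, Acadl and Acadvl, the hydroxyacyl dehydrogenase Hadh, the trifunctional protein subunits Hadha and Hadhb and the hydratase Echs1 were not called in any comparison. Their log2 fold changes lay between -0.22 (Acadl, deltaIcre over WT) and 0.20 (Echs1, Ric over deltaIcre). Acadvl overlaps Dvl2 on the other strand over 1151 bases, and without the strand setting reads of both cannot be told apart.

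Electron transfer flavoprotein hands electrons of the acyl-CoA dehydrogenases to the respiratory chain by way of Etfdh. Etfa, chr9:55454508-55512243 on the minus strand, encodes its alpha subunit. Etfa was at 106, 119.9, 107 and 124 CPM in Ric libraries, at 66.04, 98.1, 93.6 and 95.5 CPM in deltaIcre libraries, and at 92.2, 85.8, 90.2 and 89.8 CPM in WT libraries. Every Ric library was above every other library, and deltaIcre 1 was far below the rest. Etfa was 1.29-fold higher in Ric than in deltaIcre cells (a log2 fold change of 0.37 ± 0.11 SE, adjusted p = 0.021). Etfa was 1.28-fold higher in Ric than in WT cells (a log2 fold change of 0.35 ± 0.11 SE, adjusted p = 0.0219). The first was lost without Ric 5 (0.34, adjusted p = 0.0591), and the second without Ric 3, Ric 5, WT 3 or WT 4 (0.31 to 0.36). With the length and GC dependence removed they were 0.10 (adjusted p = 0.356) and 0.16 (adjusted p = 0.0994). Etfb, the beta subunit, was at 6.63 ± 1.10 CPM in Ric, 4.16 ± 1.67 CPM in deltaIcre and 5.28 ± 1.09 CPM in WT libraries, and was not called. Etfdh was at 68.4 ± 1.84 CPM in Ric, 65.0 ± 4.21 CPM in deltaIcre and 60.4 ± 3.27 CPM in WT libraries, and was not called.

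Transcript length moved with the Ric group. Over all genes tested the median log2 fold change of Ric over deltaIcre was 0.247 in the shortest of 5 classes of exonic length and -0.222 in the longest, and of Ric over WT 0.146 and -0.202. The enzymes had a median exonic length of 3800 bases, against 4130 bases for all genes. Sdhd at 1231 bases, Acaa2 at 1516 and Etfa at 1835 bases were in the shortest class, and Ogdh at 5456 bases in the second longest. Etfb at 1164 and Acadl at 2005 bases, not called in any comparison above, were in the shortest class too. The longest class held Me2 at 7252 and Cpt1a at 7642 bases, both called higher in Ric over WT cells. It also held Dlst, Hadha, Echs1 and Etfdh, which were not called in any comparison above. With each library's dependence on length and GC content removed, 6 of 38 enzymes were called in Ric over deltaIcre cells, against 20.2% of all genes, and all 6 were rises (Dld, Sucla2, Sdhd, Mdh1, Acads and Echs1); of all genes 12.2% rose and 7.98% fell. In Ric over WT cells 13 were called, against 31.1% of all genes: 12 rose (Pdhb, Dlat, Dld, Idh2, Dlst, Sucla2, Sdhd, Mdh1, Me2, Cpt1a, Echs1 and Etfdh), against 16.6% of all genes, and Cpt2 fell, against 14.5%. In deltaIcre over WT cells 3 were called, against 14.9% of all genes, and Idh2, Me2 and Cpt1a rose; of all genes 7.18% rose and 7.74% fell. The rises of Acaa2 and Etfa, the fall of Aco1 and both calls of Ogdh, its rise in deltaIcre over WT and its fall in Ric over deltaIcre cells, were not called once length and GC content were accounted for.

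**Figure D5:**
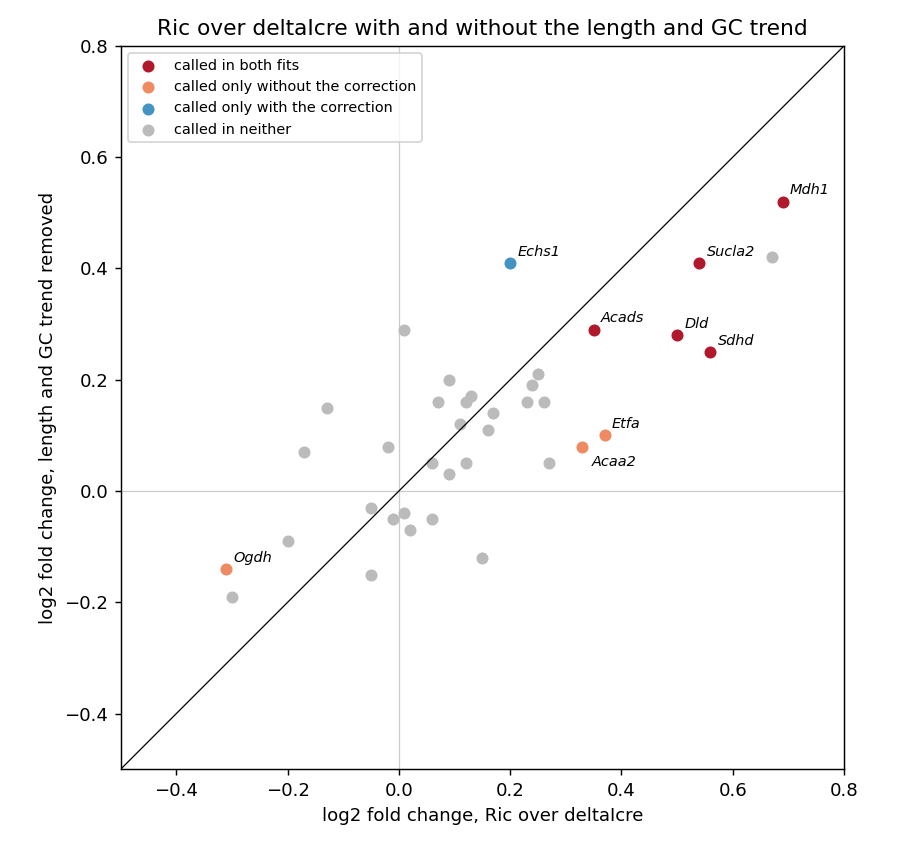
Log2 fold change of Ric over deltaIcre for the 38 enzymes in the fit as such (horizontal axis) and with each library's dependence on transcript length and GC content removed (vertical axis); the diagonal marks equal values. Dld, Sucla2, Sdhd, Mdh1 and Acads are called in both fits, Ogdh, Acaa2 and Etfa in the first, and Echs1 in the second.

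The genes around these steps were read from 7 lists of 87 genes. Of 10 tested genes of pyruvate entry and pyruvate dehydrogenase regulation, Pdp1, a phosphatase that activates the complex, rose in Ric cells. In Ric over deltaIcre and in Ric over WT cells 2 of the 10 were called (20%), against 27.2% and 32.6% of all genes. Pdp1 averaged 50.9 CPM in Ric and 33.1 CPM in deltaIcre libraries (log2 fold change 0.62 ± 0.12, adjusted p = 0.00243) and 29.5 CPM in WT libraries (Ric over WT 0.78 ± 0.12, adjusted p = 0.000203). Its relative Pdp2 fell in Ric over deltaIcre cells (-0.62, adjusted p = 0.0238), a call lost without Ric 3, Ric 4, Ric 5 or deltaIcre 4 (-0.59 to -0.51). The kinase Pdk2 fell in Ric over WT cells (-0.36, adjusted p = 0.0484), a call lost without Ric 2, 3, 4 or 5, WT 1, 4 or 5, or deltaIcre 4 (-0.39 to -0.28). In deltaIcre over WT cells edgeR called 0 of the 10, against 13.7% of all genes. At an unadjusted p under 0.05, 2 were lower, and DESeq2 and limma-voom also called 0.

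In the list of anaplerosis and mitochondrial shuttles, 15 genes were tested. The called share was 13.3% in Ric over deltaIcre cells, against 27.2% of all genes, and 26.7% in Ric over WT cells, against 32.6%. The transaminase Gpt2 averaged 4.37 CPM in Ric, 1.82 CPM in deltaIcre and 2.56 CPM in WT libraries. It rose in Ric over deltaIcre cells (1.25, adjusted p = 0.00535) and in Ric over WT cells (0.76, adjusted p = 0.0407), the second lost without Ric 2, 4 or 5 or any WT library (0.62 to 0.82). The citrate carrier Slc25a1 (-0.46, adjusted p = 0.02) and the aspartate-glutamate carrier Slc25a13 (-0.68, adjusted p = 0.0246) fell in Ric over WT cells, the first lost without Ric 3 or 4 or WT 1 or 4 (-0.44 to -0.36), and the second without Ric 2 or 5 or WT 1 or 4 (-0.65 to -0.54). In deltaIcre over WT cells edgeR called 0 of the 15, against 13.7% of all genes. At an unadjusted p under 0.05, 2 were higher and 2 lower, and DESeq2 and limma-voom called 0.

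Another list held 17 genes on or beside the beta-oxidation pathway, with Acacb, Mlycd, Acad8 and Acadsb among them. Of these 17, 1 fell in deltaIcre over WT cells, 4 rose in Ric over deltaIcre cells and 3 rose in Ric over WT cells. Those are 5.88%, 23.5% and 17.6% of the list, against 13.7%, 27.2% and 32.6% of all genes called in the same 3 comparisons. Decr1, the dienoyl-CoA reductase needed for polyunsaturated fatty acids, had the largest of the called changes. Decr1 was at 24.8, 26.9, 24.1 and 32.4 CPM in Ric libraries, at 13.8, 10.7, 12.3 and 17.4 CPM in deltaIcre libraries, and at 30.6, 25.9, 33.5 and 27.1 CPM in WT libraries. The deltaIcre libraries were below all others, and the Ric and WT libraries overlapped. Decr1 fell in deltaIcre over WT cells (log2 fold change -1.11 ± 0.16, adjusted p = 0.000124) and rose in Ric over deltaIcre cells (0.99 ± 0.16, adjusted p = 0.000711). For Ric over WT it was -0.12 (adjusted p = 0.588). Acat1, a thiolase of ketone body and isoleucine metabolism, rose in Ric over deltaIcre (0.45, adjusted p = 0.0017) and in Ric over WT cells (0.65, adjusted p = 4.1e-05). Hsdl2 and Hsd17b10 rose in the same comparisons (0.36 and 0.51 over deltaIcre, 0.45 and 0.41 over WT), but with the length and GC dependence removed neither was called over deltaIcre (0.15 for Hsdl2 and 0.23 for Hsd17b10), nor Hsd17b10 over WT (0.23). The call of Hsd17b10 over WT was also lost without Ric 3, 4 or 5 or any WT library (0.38 to 0.42).

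Fatty acid uptake and activation, 9 genes tested, held 1 called rise and 1 fall in deltaIcre over WT cells, 1 rise in Ric over deltaIcre cells, and 2 rises and 3 falls in Ric over WT cells. Those are 22.2%, 11.1% and 55.6% of the list, against 13.7%, 27.2% and 32.6% of all genes. Fabp5, a fatty acid binding protein, rose in Ric over deltaIcre cells (1.33 ± 0.21, adjusted p = 0.000742) and in Ric over WT cells (1.02 ± 0.21, adjusted p = 0.00189). Fabp5 was at 6.49, 10.4, 9.88 and 9.301 CPM in Ric libraries, at 2.54, 4.36, 3.82 and 3.64 CPM in deltaIcre libraries, and at 4.31, 4.25, 4.22 and 5.05 CPM in WT libraries. All Ric libraries were above all others. The fatty acid receptor Cd36 had few reads, 58 in Ric, 94 in deltaIcre and 5 in WT libraries, and was called in both mutant groups over WT. The read ratio was 12 for Ric over WT (95% interval 4.86 to 38.3) and 20.7 for deltaIcre over WT (8.55 to 65.1). These intervals cover counting error on pooled reads and not the spread among libraries. Cd36 was at 2.71 CPM in deltaIcre 1, against 0.614, 1.14 and 0.52 CPM in deltaIcre 3, 4 and 5. The acyl-CoA thioesterase Acot7 fell in deltaIcre over WT cells (-0.91 ± 0.18, adjusted p = 0.00269), and the ligase Acsl1 fell in Ric over WT cells (-0.57 ± 0.14, adjusted p = 0.00706). Of the 4 tested genes of carnitine handling 2 fell in deltaIcre over WT cells (50%), against 13.7% of all genes called and 6.74% that fell. These were the carnitine transporter Slc22a5 (-0.47, adjusted p = 0.0132) and the carnitine acetyltransferase Crat (-0.49, adjusted p = 0.0383). The call of Crat was lost without Ric 4, any WT library, or deltaIcre 3, 4 or 5 (-0.52 to -0.44). In Ric over WT cells 1 of the 4 was called (25%), against 32.6% of all genes called and 15.8% that rose. This was Crot, which rose (0.33, adjusted p = 0.0249), a call lost without Ric 5 or WT 1, 3 or 4 (0.28 to 0.33). In Ric over deltaIcre cells edgeR called 0 of these 4, against 27.2% of all genes. At an unadjusted p under 0.05, 2 were higher, while DESeq2 called 1 and limma-voom 0.

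Of 10 tested regulators of these pathways 1 rose and 2 fell in Ric cells against each other group, and 1 fell in deltaIcre over WT cells. The called share was 30% in Ric over deltaIcre and in Ric over WT cells, against 27.2% and 32.6% of all genes, and 10% in deltaIcre over WT cells, against 13.7%. Pparg, a nuclear receptor activated by fatty acids, had the largest of these changes. Pparg was at 13.9, 12.5, 19.9 and 25.3 CPM in Ric libraries, at 2.06, 1.596, 0.827 and 0.997 CPM in deltaIcre libraries, and at 1.93, 1.78, 3.12 and 1.94 CPM in WT libraries. Every Ric library was several times above every other library. The log2 fold change was 3.72 ± 0.32 over deltaIcre (adjusted p = 2.94e-06) and 3.01 ± 0.30 over WT (adjusted p = 3.17e-06). Myeloid cells can also express Pparg. Their markers summed to 3.0 to 3.74 CPM in Ric, 1.03 to 1.89 CPM in deltaIcre and 0.431 to 1.7 CPM in WT libraries. Of 8 such markers 2 were tested, and 1 was called higher in Ric over deltaIcre, in Ric over WT and in deltaIcre over WT cells. Adgre1, S100a8 and S100a9 were at 0 in deltaIcre and WT libraries, and no myeloid marker was at 0 in the Ric group. The part of these markers in the Pparg difference was not tested. Foxo1, a transcription factor held out of the nucleus by AKT, fell to 378 CPM in Ric libraries, against 706 CPM in deltaIcre (-0.90, adjusted p = 0.000152) and 594 CPM in WT libraries (-0.65, adjusted p = 0.000673). The coactivator Ppargc1b fell in Ric over deltaIcre (-0.69, adjusted p = 0.00253) and in Ric over WT cells (-0.49, adjusted p = 0.0113). Hif1a fell in deltaIcre over WT cells (-0.40, adjusted p = 0.029, lost without WT 4 or 5 or deltaIcre 1, 3 or 4, at -0.40 to -0.32). Of 12 genes used as gauges of mitochondrial mass, Vdac3 and Tomm22 were called in Ric over deltaIcre cells (0.58 and 0.41) and neither with the length and GC dependence removed (0.42 and 0.13). These 2 are 16.7% of the list, against 27.2% of all genes called. Both were lost without Ric 3, Ric 5 or deltaIcre 4, and Tomm22 without Ric 4 (0.53 to 0.58 for Vdac3 and 0.40 to 0.43 for Tomm22). Vdac3 was also called in Ric over WT (0.53; 8.33% of the list, against 32.6% of all genes), lost without Ric 3, 4 or 5 or WT 1, 3 or 4 (0.47 to 0.56). In deltaIcre over WT cells edgeR called 0 of these 12, against 13.7% of all genes. At an unadjusted p under 0.05, 1 was lower, and DESeq2 and limma-voom called 0. In Ric over deltaIcre cells all 12 log2 fold changes of this list were positive, with a median of 0.16. In Ric over WT cells 10 were positive (median 0.08), and in deltaIcre over WT cells 1 (median -0.07). With the length and GC dependence removed, 11, 7 and 2 were positive in the same order.

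Counting could mix reads for a few enzymes: Suclg2 shares 21.8% of its 50-base stretches with Gm15163, Pdha1 overlaps Map3k15 on the other strand over 603 bases, and Mdh1 overlaps Wdpcp likewise over 52 bases. The enzymes were also set beside all genes tested for features that did not enter their choice. Their median level was 99.2 CPM, against 25.5 CPM for all genes tested, so they were measured at greater depth than most. Their transcripts had a median GC content of 48.2%, against 49.2%, and their promoter windows of 61.2%, against 60.7%. A protein-coding gene started on the opposite strand within 1000 bases of 9 of the 38 (23.7%), against 11% of 11402 tested protein-coding genes. These pairs included Idh1 with Pikfyve, Idh3g with Ssr4, Dlst with Prox2, Sdha with Ccdc127, Sdhd with Timm8b, Mdh2 with Styxl1 and the trifunctional protein subunits Hadha and Hadhb, whose starts lie 86 bases apart.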

How the data were processed

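The authors deposited read counts per gene, not normalized. STAR 2.5.1b aligned the reads to mm10 (GRCm38) and HTSeq counted them, per the submitters' processing notes; neither the version of HTSeq nor its strand setting nor the Gencode release is given in the sources used here. Besides 25189 genes there were 3 summary rows, which stayed out of library sizes and tests. Genes passing filterByExpr (13196) were TMM-scaled, and a robust quasi-likelihood F test was run with edgeR 4.0.16 (R 4.3.3) on 12 libraries in 1 fit without covariates; genes were called at a Benjamini-Hochberg adjusted p under 0.05. CPM used TMM-scaled library sizes. The biological coefficient of variation was 17.4%. Counting intervals (95%) cover counting error only. The script was tested on simulated data with 200 changed genes.

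The enzymes, the 7 lists, the tests and the alternatives were chosen with earlier results of these data known. Values in every library are given for each enzyme called at least once, and from each list up to 3 called genes per comparison with the smallest adjusted p; Gpt2 and Hsd17b10 are also given where they ranked lower. Some genes are not reported here. Positions, exonic lengths and GC content were those of GENCODE M21 (GRCm38), where 97.5% of genes had a match (24116 by symbol, 448 by synonym), and promoter windows from RefSeq GRCm38.p6.

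Alternatives were scaling by RLE or upper quartile, DESeq2 1.42.0, voom in limma 3.58.1, testing unfiltered genes, a stricter filter (mean of 5 CPM, and 1 CPM in 4 libraries), fits of the compared groups alone, a block for the replicate number, the dependence on length and GC content removed (loess, span 0.3) without and with that block, leaving out each library, and leaving out deltaIcre 1 and 3 together. Replicate pairs differed by more than sampling noise (chi-square per degree of freedom 7.06 to 86.5 over 18 pairs).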

Additional observations from a re-analysis of the deposited data

Results flagged for a closer look

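In 114 sets of 4 libraries (38 enzymes in 3 groups), 11 held 1 library far from the other 3 by Dixon's criterion, which chance alone meets in about 1 of 20 sets. In deltaIcre 1 there were 3 such values, all low. Sdhc was at 61.6 CPM there, against 94.9 to 96.5 CPM in the other deltaIcre libraries. Acaa2 was at 91.3 CPM, against 113.5 to 117.7 CPM, and Etfa at 66.0 CPM, against 93.6 to 98.1 CPM.

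Among Ric libraries, Aco1 was high in Ric 3 (72.4 CPM, against 54.6 to 57.3 CPM) and Idh3a low there (126.6 CPM, against 129.4 to 129.5 CPM). In Ric 5 Idh3b was low (121.0 CPM, against 127.8 to 128.9 CPM), Sdhc high (106.8 CPM, against 103.0 to 103.4 CPM) and Etfdh high (71.1 CPM, against 67.2 to 67.8 CPM). Hadhb was low in Ric 2 (23.1 CPM, against 28.2 to 29.0 CPM). Hadha was high in deltaIcre 5 (107.8 CPM, against 86.9 to 90.2 CPM), and Mdh1 was high in WT 5 (389.7 CPM, against 303.9 to 316.6 CPM).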

How the results depend on the processing

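Calls that held without each library and in every other setting were Idh2 and Me2 for deltaIcre over WT, Dld, Sucla2, Sdhd and Mdh1 for Ric over deltaIcre, and Dld, Idh2, Sucla2, Sdhd and Me2 for Ric over WT. Leaving out 1 library gave 4 (without Ric 5) to 13 (without deltaIcre 3) enzymes called for Ric over deltaIcre, against 8, and 5 (without Ric 5) to 16 (without deltaIcre 1) for Ric over WT, against 12 (7 without WT 4); the cause was not tested. The median log2 fold change of Ric over deltaIcre, 0.119, ranged between 0.071 and 0.161 over those fits, and was 0.092 without deltaIcre 1 and 3 together and 0.137 without the low-count filter.

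The labels do not say whether the replicate numbers pair the libraries. Each gene's group mean was therefore subtracted from its log2 CPM, and these deviations, not the levels themselves, were correlated between libraries. The deviations of same-numbered deltaIcre and WT libraries correlated by 0.029 to 0.203, and those of differently numbered ones by -0.261 to 0.188. The deviations of same-numbered libraries correlated by -0.043 to 0.062 in Ric and deltaIcre, and by -0.052 to 0.043 in Ric and WT. These values do not settle whether deltaIcre and WT libraries were paired, and the main fit held no block for the replicate number. With the number as a block, 3, 6 and 6 enzymes were called for deltaIcre over WT, Ric over deltaIcre and Ric over WT (for Ric over WT without Pdhb, Aco1, Cpt1a at 0.43, Cpt2 at -0.40, Acaa2 and Etfa), and with the length and GC dependence also removed 2, 5 and 10.

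Uncalled values that changed sign were small. With length and GC dependence removed, without and with the block, deltaIcre over WT gave -0.029 and -0.033 for Aco1, 0.053 and 0.052 for Sdhd, 0.044 and 0.045 for Acaa2, and 0.065 and 0.064 for Etfa; Ric over deltaIcre gave 0.079 and 0.093 for Me2 and 0.074 and 0.129 for Cpt1a; Ric over WT gave 0.077 and 0.098 for Ogdh. Without deltaIcre 1 and 3, Sdhd, Acaa2 and Etfa were at 0.053, 0.011 and 0.081 for deltaIcre over WT. Aco1 was at -0.009 with the stricter filter and -0.012 with upper quartile scaling, and Idh2 in Ric over deltaIcre at 0.005 without a filter and 0.002 with upper quartile scaling. Leaving out 1 library, deltaIcre over WT ranged between -0.106 and 0.02 for Acaa2, -0.048 and 0.056 for Aco1, -0.01 and 0.133 for Dld, -0.073 and 0.097 for Etfa, -0.161 and 0.07 for Sdhd, and -0.02 and 0.124 for Sucla2, and Ric over deltaIcre between -0.041 and 0.037 for Idh2 and -0.068 and 0.029 for Me2.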
